A study of Mus musculus with 6 samples.

Results

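The 10 genes described here encode the main apolipoproteins that the liver secretes: *Apoa1*, *Apoa2*, *Apoa4*, *Apoa5*, *Apob*, *Apoc1*, *Apoc2*, *Apoc3*, *Apoe* and *Apom*. They were chosen by name as a family, with earlier results of these data known, and each was found by its Ensembl gene ID among the 49671 genes of the count table. All 10 passed the filter on low counts, which left 16089 genes to test. The RNA came from whole livers of 6 male C57BL/6J mice, 3 of each genotype, which ate the AMLN diet, with much fat, fructose and cholesterol, for 18 weeks starting at an age of 4 weeks and were harvested at 22 weeks after a short fast. SHMT2 fl/fl mice, labelled WT, carry floxed alleles of *Shmt2* without Cre, and SHMT2 HKO mice, labelled KO, carry the same floxed alleles with Albumin-Cre, which deletes the gene in hepatocytes and leaves it in the other cells of the liver. *Shmt2* encodes the mitochondrial enzyme that moves a one-carbon unit from serine to folate, with glycine as the other product. Both groups ate the AMLN diet and no chow-fed mice were sequenced in the samples used here, so the comparison is of genotype on this diet. No label ties mice of the same number to a litter, so the p-values measure the spread between these mice only.

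Apolipoproteins are the proteins on the surface of plasma lipoproteins. Apolipoprotein B forms the scaffold of the very-low-density particles with which hepatocytes export triglyceride, and apolipoprotein A-I forms that of high-density particles, which carry cholesterol back to the liver. The smaller members move between particles and set how fast triglyceride is hydrolysed and how remnants are taken up by the liver.

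Gene counts summed to between 23090837 and 34089722 per mouse. The deleted gene, *Shmt2*, was at 94.6, 109 and 93.9 CPM in SHMT2 fl/fl mice 1, 2 and 3 and at 24.9, 28.3 and 19.3 CPM in SHMT2 HKO mice 1, 2 and 3, with no overlap. CPM are counts per 1 M counts of the library, with library sizes scaled by TMM (trimmed mean of M values), which sets the libraries to a common level over most genes. TMM gave the SHMT2 fl/fl libraries factors of 1.13 to 1.21 and the SHMT2 HKO libraries factors of 0.802 to 0.984, and each difference in CPM between genotypes contains this step. Of 6 hepatocyte markers, 1 (*Asgr1*) passed the test, and it was higher in SHMT2 HKO mice. *Tat* had a negative log2 fold change (-0.66, edgeR adjusted p = 0.0718). The summed level of the 6, most of it from albumin (*Alb*), was 47388 to 71790 CPM in SHMT2 HKO mice. It was 39150 to 47919 CPM in SHMT2 fl/fl mice, so the groups overlapped. With libraries scaled to the ERCC RNAs, 0 of the 6 had a log2 fold change above 0, and *Tat* passed as lower (-1.34, edgeR adjusted p = 0.0100).

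All 10 apolipoprotein genes had a positive log2 fold change in SHMT2 HKO livers under TMM scaling. Of these, 6 turned negative when the libraries were scaled to the ERCC spike-in RNAs. That scaling rests on spike-in shares that differed within the SHMT2 HKO group, from 1.35% in mouse 3 to 2.75% in mouse 1. With TMM, the median over the 10 was 0.76 on the log2 scale, against 0.027 over all genes tested. *Apoa2*, *Apoa4*, *Apoa5*, *Apob* and *Apoc3* rose, and 0 of the 10 fell (edgeR's quasi-likelihood test, adjusted p under 0.05 after Benjamini-Hochberg adjustment over the 16089 genes). Over all genes tested, 29.0% passed in either direction and 12.5% were higher. In 7 of the 10, each SHMT2 HKO mouse was above each SHMT2 fl/fl mouse, as was the case for 21.9% of all genes tested. The genes are abundant, however, and abundant genes passed more often. Among 238 genes with a mean of at least 500 CPM, a limit chosen after the values were seen, 48.7% were called higher and 62.6% were higher without overlap, beside 5 and 7 of the 8 members above that level. The 5 genes that did not pass had adjusted p-values from 0.0588 (*Apom*) to 0.189 (*Apoc2*).

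**Figure D1:**
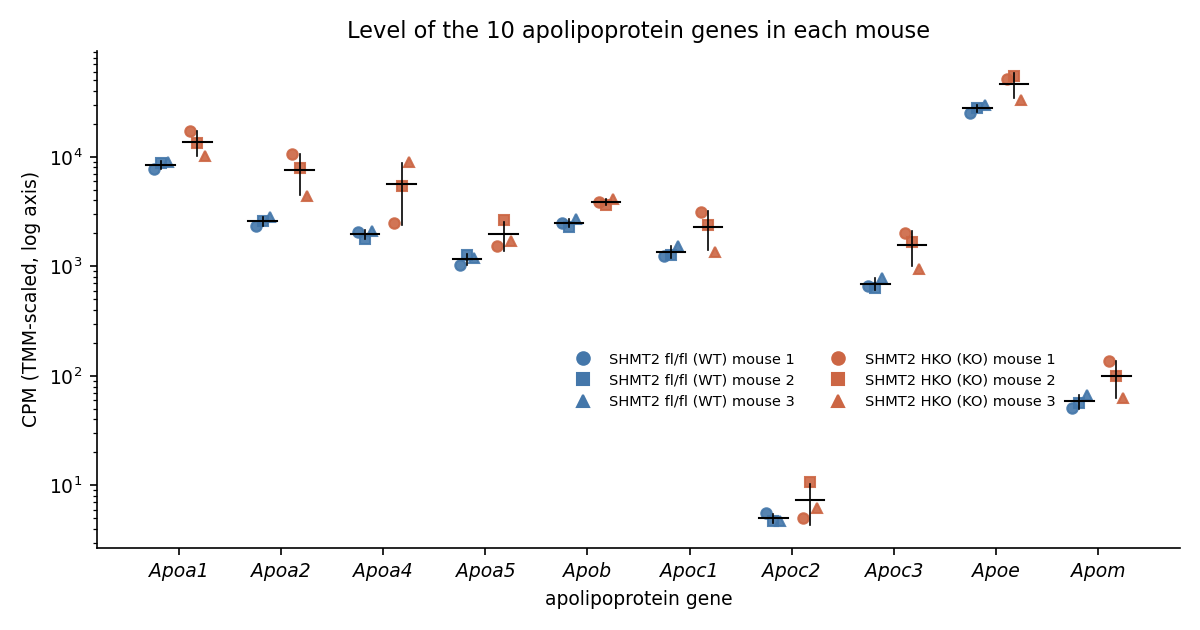
Level of the 10 genes in each mouse, in CPM after TMM scaling on a log axis, with blue for SHMT2 fl/fl (WT) and orange for SHMT2 HKO (KO) mice, a symbol for each mouse number, black horizontal lines for the mean and vertical lines for the SD (n = 3). *Apoe* has the highest values, the lowest are those counted for *Apoc2*, most of whose exonic bases are shared with *Gm44805*, and the orange points lie above all blue points for 7 genes and overlap them for *Apoc1*, *Apoc2* and *Apom*; scaled to the ERCC RNAs, the mean difference turned negative for 6 genes.

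Which genes passed depended on single mice. With SHMT2 HKO mouse 1 left out, the same 5 genes passed. With SHMT2 HKO mouse 3 left out, 8 passed, *Apoa4* no longer being one of them. With SHMT2 fl/fl mouse 1, 2 or 3 or SHMT2 HKO mouse 2 left out, 1 passed, and that was *Apoa2* each time, with adjusted p-values between 0.000725 and 0.0461 over the 6 fits. The median log2 fold change of the 10 stayed between 0.68 and 0.94 in these fits. DESeq2 called 9 of the 10, all but *Apoc2*.

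The sequence before the start of the gene is shown for the 4 genes that rose and have an entry in the promoter table of RefSeq (GRCm38.p6), which held 8 of the 10 genes. *Apoc1* and *Apoc3* have no entry. Each line runs 5′ to 3′ on the strand of the gene, from 250 bases before the RefSeq start to the base before the earlier of the RefSeq and GENCODE starts. Capitals mark matches on either strand to 3 motifs that were searched: CAAAGNNCA, a short form of the site of the hepatocyte factor HNF4A, TGTTTAC, of forkhead factors such as FOXA2, and TATAAA, the TATA box.
*Apoa2*, chr1:171224804-171225053, plus strand: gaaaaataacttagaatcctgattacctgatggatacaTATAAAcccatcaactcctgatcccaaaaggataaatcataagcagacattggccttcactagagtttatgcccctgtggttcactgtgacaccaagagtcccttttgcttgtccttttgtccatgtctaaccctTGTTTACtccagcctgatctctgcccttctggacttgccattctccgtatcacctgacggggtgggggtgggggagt
*Apoa4*, chr9:46240594-46240695, plus strand: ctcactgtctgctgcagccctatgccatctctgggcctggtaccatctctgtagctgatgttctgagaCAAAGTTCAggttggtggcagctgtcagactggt
*Apoa5*, chr9:46268383-46268632, plus strand: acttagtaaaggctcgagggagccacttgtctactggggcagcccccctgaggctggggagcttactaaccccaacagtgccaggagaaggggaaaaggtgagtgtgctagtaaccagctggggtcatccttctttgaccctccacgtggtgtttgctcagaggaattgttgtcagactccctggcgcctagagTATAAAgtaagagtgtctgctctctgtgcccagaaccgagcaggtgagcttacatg
*Apob*, chr12:7977427-7977647, plus strand: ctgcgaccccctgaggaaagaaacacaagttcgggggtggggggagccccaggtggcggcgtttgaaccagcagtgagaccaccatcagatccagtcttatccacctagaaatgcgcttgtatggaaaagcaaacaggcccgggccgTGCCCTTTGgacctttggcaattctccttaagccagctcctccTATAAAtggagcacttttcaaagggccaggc
The HNF4-type motif was found in *Apoa4*, with its first base 182 bases before the RefSeq start, and in *Apob*, on the opposite strand, 103 bases before it. The forkhead motif was found in *Apoa2*, 77 bases before the start. TATAAA was found in *Apoa2* (212 bases before), *Apoa5* (56) and *Apob* (60). Of the 20595 windows of 300 bases in the table, 5.87% held the HNF4-type motif, 3.14% the forkhead motif and 13.2% TATAAA, and the windows of *Apoa1*, *Apoc2*, *Apoe* and *Apom* held none of these letters. A match is a description of the letters, not evidence of binding.

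*Apoa1* (ENSMUSG00000032083, chromosome 9, 46228580 to 46230466, plus strand, GRCm38) encodes the scaffold of high-density lipoprotein and the activator of the cholesterol-esterifying enzyme LCAT. Its level was 7704, 8739 and 9020 CPM in SHMT2 fl/fl mice 1, 2 and 3, against 17306, 13514 and 10166 CPM in SHMT2 HKO mice 1, 2 and 3. The groups did not overlap, but SHMT2 HKO mouse 3 lay close to the highest SHMT2 fl/fl mouse. The log2 fold change was 0.69 (95% confidence interval 0.13 to 1.24, edgeR adjusted p = 0.0646), which did not pass the test.

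*Apoa2* (ENSMUSG00000005681, chromosome 1, 171225054 to 171226379, plus strand) encodes the second most abundant protein of high-density particles. Its level was 2342, 2614 and 2832 CPM in SHMT2 fl/fl mice and 10529, 7885 and 4396 CPM in SHMT2 HKO mice 1, 2 and 3. All 3 SHMT2 HKO mice were above all SHMT2 fl/fl mice, mouse 1 farthest. The fold was 2.93 (95% confidence interval 1.78 to 4.82, log2 fold change 1.55 ± 0.31 (SE), edgeR adjusted p = 0.00888), the largest of the 10 under TMM scaling. Under ERCC scaling its log2 fold change was 0.63 (edgeR adjusted p = 0.267), while the adjusted p-value of all 17 alternatives ran from 4.73e-07 to that value and the other 16 left it past the threshold.

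*Apom* (ENSMUSG00000024391, chromosome 17, 35128997 to 35132050, minus strand) encodes the carrier of sphingosine 1-phosphate on high-density particles. It was at 50.7, 57.0 and 67.6 CPM in SHMT2 fl/fl mice and at 138, 99.6 and 62.8 CPM in SHMT2 HKO mice. The groups overlapped, because SHMT2 HKO mouse 3 was below SHMT2 fl/fl mouse 3. The log2 fold change of 0.78 (0.17 to 1.38) missed the threshold (edgeR adjusted p = 0.0588).

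*Apob* (ENSMUSG00000020609, chromosome 12, 7977648 to 8016835, plus strand) encodes the protein around which very-low-density particles are built. Its level was 2467, 2310 and 2717 CPM in SHMT2 fl/fl mice and 3884, 3643 and 4080 CPM in SHMT2 HKO mice. No mouse crossed over, and the SHMT2 HKO mice were closer to each other than for any other member, with a coefficient of variation of 5.66%. The fold was 1.55 (1.18 to 2.03, log2 fold change 0.63 ± 0.17 (SE), edgeR adjusted p = 0.0269). The adjusted p-value rose to 0.315 without TMM and to 0.903 with ERCC scaling, where the log2 fold change was -0.066.

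*Apoc3* (ENSMUSG00000032081, chromosome 9, 46232933 to 46235636, minus strand) encodes an inhibitor of lipoprotein lipase and of remnant uptake. It was at 661, 637 and 791 CPM in SHMT2 fl/fl mice and at 2027, 1684 and 952 CPM in SHMT2 HKO mice. Again there was no overlap, and SHMT2 HKO mouse 3 was the lowest of its group. The fold was 2.23 (1.44 to 3.46, log2 fold change 1.16 ± 0.28 (SE), edgeR adjusted p = 0.0167). It also passed without TMM, with a log2 fold change of 0.70 (edgeR adjusted p = 0.0319), but not with ERCC scaling, where it was 0.25 (edgeR adjusted p = 0.647).

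*Apoa5* (ENSMUSG00000032079, chromosome 9, 46268633 to 46271919, plus strand) encodes an activator of triglyceride hydrolysis, with the opposite effect on plasma triglyceride to that of apolipoprotein C-III. Its level was 1024, 1283 and 1187 CPM in SHMT2 fl/fl mice and 1548, 2651 and 1703 CPM in SHMT2 HKO mice. All SHMT2 HKO mice were above the SHMT2 fl/fl mice, with mouse 2 the highest. The fold was 1.69 (1.16 to 2.46, log2 fold change 0.76 ± 0.24 (SE), edgeR adjusted p = 0.0445), just past the threshold, and the call was lost without TMM (0.32, edgeR adjusted p = 0.232) and with ERCC scaling (0.015, edgeR adjusted p = 0.979).

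*Apoc1* (ENSMUSG00000040564, chromosome 7, 19689481 to 19692660, minus strand) encodes a small inhibitor of lipoprotein lipase and of receptor binding. It was at 1233, 1281 and 1544 CPM in SHMT2 fl/fl mice and at 3118, 2397 and 1349 CPM in SHMT2 HKO mice. The groups overlapped, since SHMT2 HKO mouse 3 fell within the range of the SHMT2 fl/fl mice while the other two were above it. The log2 fold change was 0.76 (0.08 to 1.43, edgeR adjusted p = 0.0876).

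*Apoc2* (ENSMUSG00000002992, chromosome 7, 19671579 to 19677941, minus strand) encodes the cofactor that lipoprotein lipase needs. Its values were low for a liver apolipoprotein, at 5.58, 4.74 and 4.75 CPM in SHMT2 fl/fl mice and 5.09, 10.8 and 6.18 CPM in SHMT2 HKO mice, which overlapped. In the annotation, 646 of its 813 exonic bases (79.5%) lie within exons of *Gm44805* on the same strand, a gene model that runs through *Apoc2* into *Apoc4*. How reads over both models were counted is not given in the sources used here, so these values are not a level of the *Apoc2* transcript. The log2 fold change of 0.54 (-0.11 to 1.20, edgeR adjusted p = 0.189) carries the same limit. *Gm44805* itself was at 5.48, 5.53 and 6.0 CPM in SHMT2 fl/fl mice and 12.3, 9.93 and 6.93 CPM in SHMT2 HKO mice.

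*Apoe* (ENSMUSG00000002985, chromosome 7, 19696109 to 19699188, minus strand) encodes the ligand through which remnants bind receptors on hepatocytes, and is also made by macrophages. It was the most abundant member, at 25350, 28077 and 29800 CPM in SHMT2 fl/fl mice and 51174, 54633 and 33128 CPM in SHMT2 HKO mice. The groups did not overlap, but SHMT2 HKO mouse 3 was much nearer to the SHMT2 fl/fl mice than to the other two. The log2 fold change was 0.74 (0.15 to 1.33, edgeR adjusted p = 0.0622), which did not pass.

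*Apoa4* (ENSMUSG00000032080, chromosome 9, 46240696 to 46243459, plus strand) encodes an apolipoprotein that the mouse liver makes together with the intestine and that is known to follow hepatic triglyceride content. Its level was 2061, 1766 and 2106 CPM in SHMT2 fl/fl mice and 2497, 5387 and 8906 CPM in SHMT2 HKO mice. The groups did not overlap, but SHMT2 HKO mouse 1 was barely above the SHMT2 fl/fl range and mouse 3 was far above it. The fold was 2.83 (1.48 to 5.42, log2 fold change 1.5 ± 0.41 (SE), edgeR adjusted p = 0.0274). It was the sole member that passed with ERCC scaling (1.03, edgeR adjusted p = 0.0459), but it did not pass without TMM (1.13, edgeR adjusted p = 0.0769), and its adjusted p-value lay between 0.000241 and 0.284 over all alternatives. On the opposite strand *Gm47528* covers 34.9% of its exonic bases, with 333, 307 and 189 counts in SHMT2 fl/fl mice and 159, 545 and 1485 counts in SHMT2 HKO mice. The library kit named in the study does not mark strand, so reads of the pair cannot be told apart where the exons overlap. The counts of *Gm47528* were far below those of *Apoa4*, which were 46936 to 226273 per mouse. Of enterocyte markers, *Alpi* had no count in any mouse, *Sis* had none outside SHMT2 fl/fl mouse 3, *Vil1* fell from 3.21 to 8.88 CPM in SHMT2 fl/fl mice to 0.594 to 0.787 CPM in SHMT2 HKO mice, and *Fabp2*, which the liver also expresses, rose from 64.7 to 77.5 CPM to between 170 and 213 CPM. Which cells the *Vil1* counts came from was not tested, so its fall is not a measure of intestinal RNA.

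The SHMT2 HKO mice did not share 1 order over the members. *Apoa1*, *Apoa2*, *Apoc1*, *Apoc3* and *Apom* were highest in mouse 1 and lowest in mouse 3. *Apoa4* ran the other way. Its log2 ratio to the SHMT2 fl/fl mean was 0.34 in mouse 1, 1.45 in mouse 2 and 2.17 in mouse 3, while that of *Apoa2* was 2.02, 1.60 and 0.76. For *Apoc1*, mouse 3 stood at the SHMT2 fl/fl mean, with a log2 ratio of -0.0040 against 1.20 in mouse 1. All 10 genes had a larger SD in SHMT2 HKO than in SHMT2 fl/fl mice. Their coefficients of variation ran from 8.09% to 14.6% in SHMT2 fl/fl mice and from 5.66% (*Apob*) to 57.4% (*Apoa4*) in SHMT2 HKO mice.

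**Figure D2:**
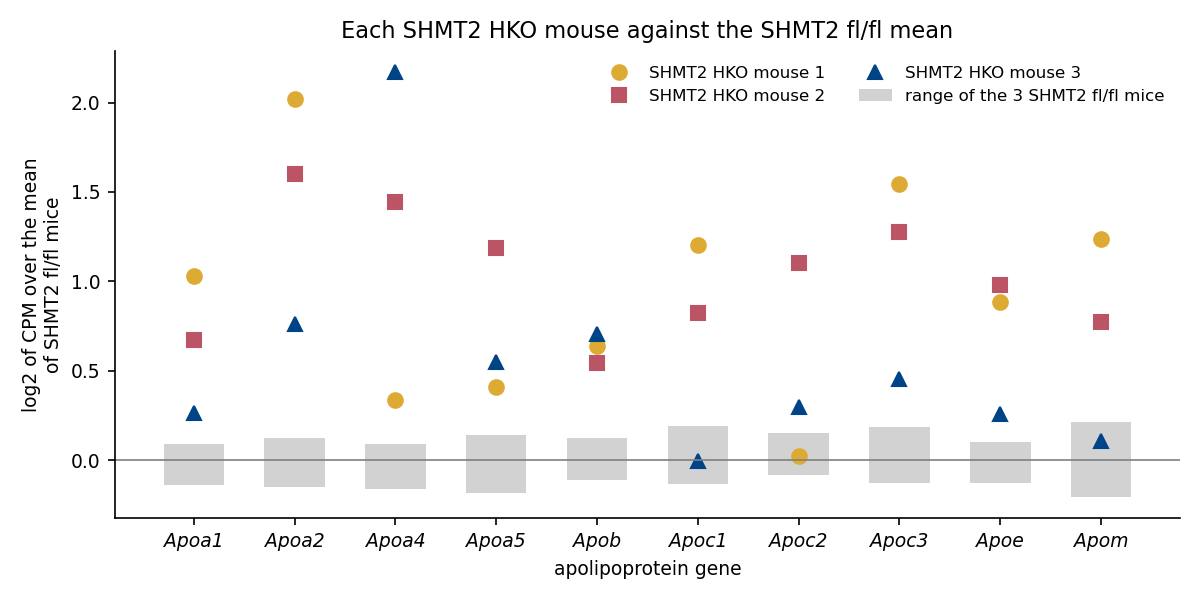
Log2 ratio of each SHMT2 HKO mouse to the mean of the 3 SHMT2 fl/fl mice for each gene, in TMM-scaled CPM, with grey boxes for the range of the SHMT2 fl/fl mice. Mouse 1 (circles) leads for *Apoa2* at 2.02 and mouse 3 (triangles) for *Apoa4* at 2.17, and the 3 mice lie closest together for *Apob*.

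The differences in CPM rest on how libraries are set to a common level. Without TMM, the median gene shifted by -0.42 on the log2 scale, with scaling to the count of albumin (*Alb*), an alternative chosen after seeing the data, by -0.52, and with ERCC scaling by -0.72. The median over the 10 members became 0.31, 0.18 and -0.08. Under ERCC scaling *Apoa1*, *Apob*, *Apoc1*, *Apoc2*, *Apoe* and *Apom* had log2 fold changes between -0.22 and -0.066. None of these 6 passed the test. The spike-in RNAs made up 1.47%, 1.84% and 1.42% of gene plus ERCC counts for SHMT2 fl/fl mice 1, 2 and 3. For SHMT2 HKO mice 1, 2 and 3 they made up 2.75%, 2.31% and 1.35%. SHMT2 HKO mouse 3 thus lay below every SHMT2 fl/fl mouse, and the ERCC-scaled values carry this spread. Its cause was not tested. Relative to the median gene, the median of the members lay 0.73 higher with TMM, 0.70 without it, 0.68 with *Alb* scaling and 0.61 with ERCC scaling, and all 10 members were above the median gene under each of these. A change of scaling moves all genes by about the same amount, so these gaps stay nearly fixed and are not separate support. Abundant genes were also higher more often than all genes, as given above. *Apoa2* and *Apoc3* passed without TMM and with *Alb* scaling, and *Apoa4* with ERCC scaling.

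**Figure D3:**
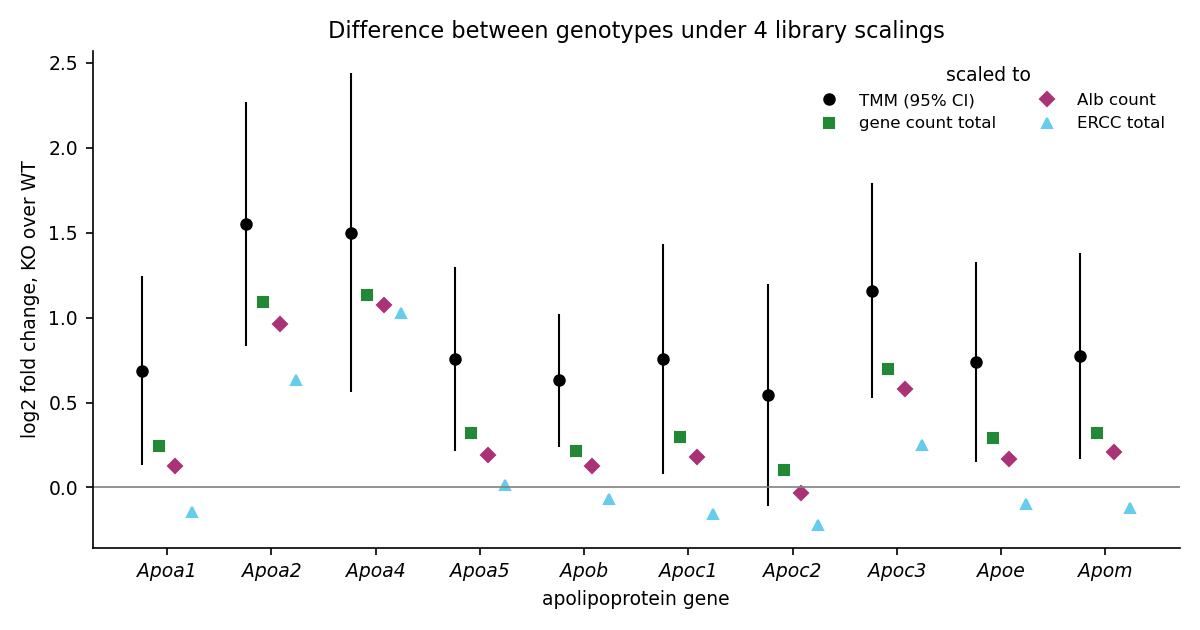
Log2 fold change of each gene (SHMT2 HKO over SHMT2 fl/fl) with libraries scaled by TMM (black, bars for the 95% confidence interval of edgeR's fit), to the gene count total (green squares), to the *Alb* count (purple diamonds) and to the ERCC total (light blue triangles). *Apoa2*, *Apoa4*, *Apoa5* and *Apoc3* stay above 0 under all 4, while *Apoa1*, *Apob*, *Apoc1*, *Apoe* and *Apom* turn negative with ERCC scaling and *Apoc2* with ERCC and *Alb* scaling.

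Shares of counts within a mouse need no scaling between libraries. The 10 genes held 5.16%, 5.38% and 5.63% of all gene counts in the SHMT2 fl/fl and 7.47%, 7.36% and 6.36% in the SHMT2 HKO mice. No SHMT2 HKO mouse was within the SHMT2 fl/fl range (two-sided exact permutation test, p = 0.1, which is the smallest p of this design). The difference was 1.67 percentage points. Within the 10-gene total, *Apoe* took 59.1%, 60% and 59.5% in SHMT2 fl/fl mice, against 55.5%, 59.5% and 51.2% in SHMT2 HKO mice. *Apoa2* took 5.46%, 5.59% and 5.66% against 11.4%, 8.58% and 6.79%, the sole member whose share of the 10-gene counts did not overlap between genotypes (exact permutation test, two-sided, p = 0.1, 0.833 after Benjamini-Hochberg adjustment over 10 members). With counts per kb in place of counts, its share was 16.7% ± 0.220 (SD, n = 3) against 24.7% ± 4.75 (SD, n = 3), again without overlap. On that scale *Apoa1* (23.7% ± 0.501 against 19.8% ± 1.58) and *Apoe* (44.8% ± 0.265 against 38.9% ± 3.11) took lower shares without overlap (exact permutation test, two-sided, p = 0.1 for each of the 3). The share of *Apoa4* spread from 2.71% in SHMT2 HKO mouse 1 to 13.8% in SHMT2 HKO mouse 3, on both sides of the 3.78% to 4.80% of the SHMT2 fl/fl mice.

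Set against albumin in the same mouse, *Apoa2* had 6.72, 7.58 and 6.54 counts per 100 *Alb* counts in SHMT2 fl/fl mice and 18.4, 12.0 and 10.3 in SHMT2 HKO mice. *Apoc3* had 1.90, 1.85 and 1.83 against 3.54, 2.57 and 2.23. Both were without overlap (exact permutation test, two-sided, p = 0.1). The other 8 members overlapped on this measure, *Apoe* with 68.8 to 81.4 counts per 100 *Alb* counts in SHMT2 fl/fl mice and 77.6 to 89.3 in SHMT2 HKO mice. *Alb* itself had a log2 fold change of 0.56 (edgeR adjusted p = 0.132).

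CPM per kb of exon set genes of unlike length side by side only roughly. Length was taken as all annotated exonic bases of a gene, not those of the transcript expressed. The order in SHMT2 fl/fl mice was *Apoe* (12976 ± 1050 CPM per kb (SD, n = 3)), *Apoa1* (6867 ± 561), *Apoa2* (4834 ± 457), *Apoc1* (1818 ± 225), *Apoa4* (1090 ± 102), *Apoc3* (686 ± 81.6), *Apoa5* (462 ± 52.0), *Apob* (179 ± 14.7) and *Apom* (57.7 ± 8.44). *Apoc2* is left out, since its counts are not a level of its transcript. *Apoa4* and *Apoa5* share 34.9% and 20.8% of their exonic bases with *Gm47528* and *Gm47544* on the opposite strand, so their levels are approximate too. No neighbours in this order overlapped between mice. In SHMT2 HKO mice *Apoa2* came after *Apoe* by its mean, at 14158 ± 5729 CPM per kb (SD, n = 3), and *Apoa1* next, at 11053 ± 2890. Between mice these overlapped with each other, and *Apoa2* also with *Apoe* (21661 ± 5401). Within each SHMT2 HKO mouse *Apoe* was above *Apoa2*, at 23935, 25553 and 15495 CPM per kb in mice 1, 2 and 3. Within SHMT2 HKO mouse 1 *Apoa2* was at 19607 and *Apoa1* at 14002 CPM per kb, within mouse 2 at 14683 and 10934, and within mouse 3 at 8186 and 8225. *Apoa4*, *Apoc1* and *Apoc3* each overlapped between SHMT2 HKO mice with the next in order, while *Apoa5* did not overlap with *Apob*. Within each SHMT2 HKO mouse, however, *Apoc1* was above *Apoc3* and *Apoc3* above *Apoa5*, so only the place of *Apoa4* varied among them. *Apoa4* was at 1376, 2968 and 4907 CPM per kb in mice 1, 2 and 3, below *Apoc3* (1999) in mouse 1 and above *Apoc1* (1813) in mouse 3.

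Of the 10 genes, 7 lie in the gene clusters of chromosomes 9 and 7. The cluster on chromosome 9 holds *Apoa1*, *Apoc3*, *Apoa4* and *Apoa5* within 43.3 kb, and its members had log2 fold changes of 0.69 to 1.5. The neighbours on both sides did not pass the test: *Sik3* had a log2 fold change of 0.25 (edgeR adjusted p = 0.229) and *Zpr1*, next to *Apoa5*, of 0.13 (edgeR adjusted p = 0.600). The cluster on chromosome 7 holds *Apoc2*, *Apoc1* and *Apoe* within 27.6 kb, together with *Apoc4*, which rose (0.91, edgeR adjusted p = 0.0324). Its next neighbours, *Clptm1* (0.21, edgeR adjusted p = 0.247) and *Tomm40* (0.20, edgeR adjusted p = 0.329), did not pass. *Gm44805*, within the cluster, passed (0.77, edgeR adjusted p = 0.0334), and *Relb*, beyond *Clptm1*, fell by 1.70 on the log2 scale (edgeR adjusted p = 0.00665). *Gm44805* shares exonic bases with *Apoc2* and runs into *Apoc4* on the same strand. How reads over these models were counted is not given, so the values of *Gm44805* and *Apoc4* may carry the limit of *Apoc2*. With ERCC scaling the values of *Apoa1*, *Apoc1*, *Apoc2* and *Apoe* were below 0, as given above. No test set cluster genes against their neighbours.

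**Figure D4:**
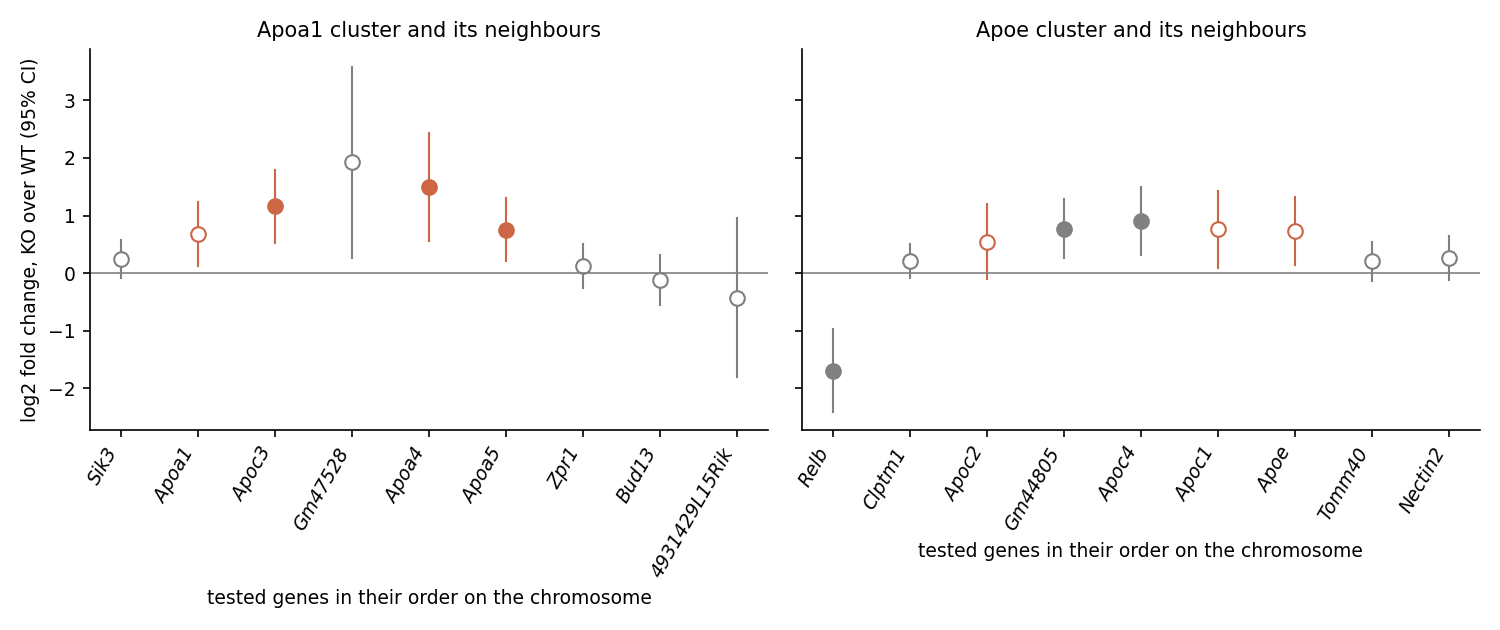
Log2 fold change (SHMT2 HKO over SHMT2 fl/fl, TMM scaling, bars for the 95% confidence interval) of the tested genes in and within 50 kb of both apolipoprotein clusters, in their order on the chromosome, with orange for the described genes, grey for others and filled circles for an adjusted p under 0.05. The apolipoprotein genes lie between 0.54 and 1.5 and the flanking *Sik3*, *Zpr1*, *Clptm1* and *Tomm40* between 0.13 and 0.25, with *Relb* at -1.70; with ERCC scaling *Apoa1*, *Apoc1*, *Apoc2* and *Apoe* are below 0.

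The genes whose log2 CPM followed a member most closely over the 6 mice were taken from 4611 genes with a mean of at least 5 log2 CPM, as a description, since all points share the libraries and the scaling. They were *Uqcrb*, *Mcee* and *Dbt* for *Apoa2*, *Ppa1*, *Ndufa4* and *Pmm2* for *Apoc3*, *Ebp*, *Gstz1* and *Ndufa8* for *Apoe*, *Ccdc107*, *Gfer* and *Rpl36al* for *Apoa1*, *Fam207a*, *Csnk2b* and *D8Ertd738e* for *Apoc1*, and *D8Ertd738e*, *Atp5j2* and *Csnk2b* for *Apom*. For *Apob* they were *Stab2*, *Klhl21* and *Cdv3*, for *Apoa5* *Slc25a10*, *Smarca4* and *Rab5c*, and for *Apoa4* *Aldh3a2*, *Usp24* and *A1cf*. Pearson's r was between 0.989 (*Apoa4* with *A1cf*) and 0.999. Each is the highest of 4611 values over 6 points, of which 3 are of each genotype.

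Other genes of lipoprotein metabolism, and 15 other secreted plasma proteins of hepatocytes, were read from lists. Of these 82 genes together, 31 were higher and 4 lower in SHMT2 HKO mice under TMM scaling, where 12.5% and 16.5% of all genes were. Of the 31, 5 were among the secreted plasma proteins. Scaling changed this balance, to 9 higher and 11 lower without TMM, 0 higher and 11 lower with *Alb* scaling, and 0 higher and 6 lower with ERCC scaling.

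Of 14 genes that assemble and export apoB particles, 8 rose, 1 fell and 5 did not pass, with a median of 0.47 under TMM that became -0.26 with ERCC scaling. *Mttp*, which loads lipid onto apolipoprotein B, was at 167, 157 and 152 CPM in SHMT2 fl/fl mice and 277, 352 and 349 CPM in SHMT2 HKO mice. The groups did not overlap (log2 fold change 1.04, edgeR adjusted p = 0.00231). *Sar1b*, a GTPase of the vesicles that leave the endoplasmic reticulum (1.04, edgeR adjusted p = 0.00200), *Cideb* (0.83, edgeR adjusted p = 0.00358) and the most abundant, *P4hb*, the partner subunit of MTTP (0.62, edgeR adjusted p = 0.0212), also rose, though *P4hb* turned negative with ERCC scaling (-0.11). *Sort1*, a sorting receptor of the Golgi, fell by 0.92 on the log2 scale (edgeR adjusted p = 0.0241). *Mttp* and *Sar1b* still passed without TMM (0.62 for each, edgeR adjusted p = 0.0239 and 0.00691), but not with *Alb* scaling (0.52 and 0.50, edgeR adjusted p = 0.0975 and 0.0892) or ERCC scaling (0.36 and 0.31, edgeR adjusted p = 0.550 and 0.611).

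Of the 3 genes of *Apob* mRNA editing, *Rbm47* rose under TMM scaling (0.80, edgeR adjusted p = 0.00604). It did not pass without TMM (0.38, edgeR adjusted p = 0.147), with *Alb* scaling (0.30, edgeR adjusted p = 0.403) or with ERCC scaling (0.12, edgeR adjusted p = 0.862). *A1cf*, the factor that guides the editing enzyme, was at 28.2, 22.6 and 30.2 CPM in SHMT2 fl/fl mice and 27.7, 57.0 and 83.7 CPM in SHMT2 HKO mice. Like *Apoa4*, it was lowest in SHMT2 HKO mouse 1 and highest in mouse 3, and the groups overlapped (1.06, edgeR adjusted p = 0.0591). *Apobec1*, the deaminase itself, had a log2 fold change of -0.38 (edgeR adjusted p = 0.175). It passed as lower without TMM (-0.78, edgeR adjusted p = 0.0484) and with *Alb* scaling (-0.85, edgeR adjusted p = 0.0348), but not with ERCC scaling (-0.99, edgeR adjusted p = 0.178). Gene counts do not show how much of the *Apob* mRNA was edited.

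Of 11 genes that remodel lipoproteins in plasma, 2 rose, 2 fell and 7 did not pass (median 0.58, and -0.19 with ERCC scaling). Hepatic lipase, *Lipc*, was at 57.0, 52.1 and 68.1 CPM in SHMT2 fl/fl mice and 137, 134 and 114 CPM in SHMT2 HKO mice. It rose without overlap (1.12, edgeR adjusted p = 0.00175), but did not pass with *Alb* scaling (0.59, edgeR adjusted p = 0.0591) or ERCC scaling (0.35, edgeR adjusted p = 0.597). *Lpl*, the lipase of peripheral tissues and macrophages, was at 254, 188 and 228 CPM in SHMT2 fl/fl mice and 94.6, 52.6 and 65.9 CPM in SHMT2 HKO mice. It fell by 1.65 on the log2 scale (edgeR adjusted p = 0.00223), and *Abcg1*, a cholesterol exporter, fell by 1.09 (edgeR adjusted p = 0.00305), both also with ERCC scaling. *Lcat* had a log2 fold change of 0.66 (edgeR adjusted p = 0.0550) and *Pltp* of 1.06 (edgeR adjusted p = 0.132).

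Of 12 receptor and uptake genes, 2 rose, 1 fell and 9 did not pass (median 0.14, and -0.58 with ERCC scaling). *Sorl1*, a sorting receptor, was at 16.5, 21.7 and 18.4 CPM in SHMT2 fl/fl mice and 11.3, 4.41 and 7.48 CPM in SHMT2 HKO mice. It fell by 1.28 on the log2 scale without overlap (edgeR adjusted p = 0.0166), also with ERCC scaling. The high-density particle receptor *Scarb1* had a log2 fold change of 0.13 (edgeR adjusted p = 0.555) and the most abundant of the list, *Lrp1*, of 0.26 (edgeR adjusted p = 0.257).

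Of 18 transcription factors known to act on apolipoprotein genes, 8 rose, 0 fell and 10 did not pass (median 0.50, and -0.26 with ERCC scaling). *Ppara*, the receptor that responds to fatty acids, was at 37.5, 45.3 and 53.1 CPM in SHMT2 fl/fl mice and 78.5, 107 and 106 CPM in SHMT2 HKO mice (1.10, edgeR adjusted p = 0.00369). *Foxa2* (0.81, edgeR adjusted p = 0.00444) and the most abundant, *Cebpa* (0.72, edgeR adjusted p = 0.00901), rose without overlap. With ERCC scaling *Ppara* (0.44), *Foxa2* (0.037) and *Cebpa* (0.025) did not pass (edgeR adjusted p = 0.522, 0.960 and 0.967). *Creb3l3*, a membrane-bound factor that acts on *Apoa4*, *Apoa5* and *Apoc2*, was at 253, 315 and 300.4 CPM against 431, 432 and 414 CPM (0.56, edgeR adjusted p = 0.0217), and -0.15 with ERCC scaling. *Hnf4a* had a log2 fold change of 0.41 (edgeR adjusted p = 0.101).

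Of 9 further apolipoprotein genes, 5 rose, 0 fell and 4 did not pass (median 0.93, and 0.058 with ERCC scaling). *Saa4* (2.0, edgeR adjusted p = 0.0378), *Apon* (0.93, edgeR adjusted p = 0.0347) and *Apof* (0.91, edgeR adjusted p = 0.0156) had the largest increases among those that passed. The most abundant, *Clu*, was at 2847, 3170 and 3035 CPM in SHMT2 fl/fl mice and 2643, 1932 and 2087 CPM in SHMT2 HKO mice, with a log2 fold change of -0.44 (edgeR adjusted p = 0.112). It was lower without overlap, and it passed the test without TMM (-0.87, edgeR adjusted p = 0.00489), with *Alb* scaling (-0.97, edgeR adjusted p = 0.00102) and with ERCC scaling (-1.18, edgeR adjusted p = 0.0199). Of 15 other secreted plasma proteins of hepatocytes, 5 rose, 0 fell and 10 did not pass, with a median of 0.68 under TMM, near that of the 10 apolipoprotein genes, and of -0.13 with ERCC scaling. *Ttr* (0.82, edgeR adjusted p = 0.0498), *Rbp4* (0.78, edgeR adjusted p = 0.0275) and *Ambp* (0.78, edgeR adjusted p = 0.0362) led these, and all 3 were slightly below 0 with ERCC scaling. Of the 15, 0 were called higher without TMM, with *Alb* scaling or with ERCC scaling. *Ahsg* (-0.34 with TMM) passed as lower under these 3 (-0.78, -0.88 and -1.15, edgeR adjusted p = 0.0103, 0.00139 and 0.0172). *Hpx* passed as lower with *Alb* scaling (-0.60, edgeR adjusted p = 0.0339).

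**Figure D5:**
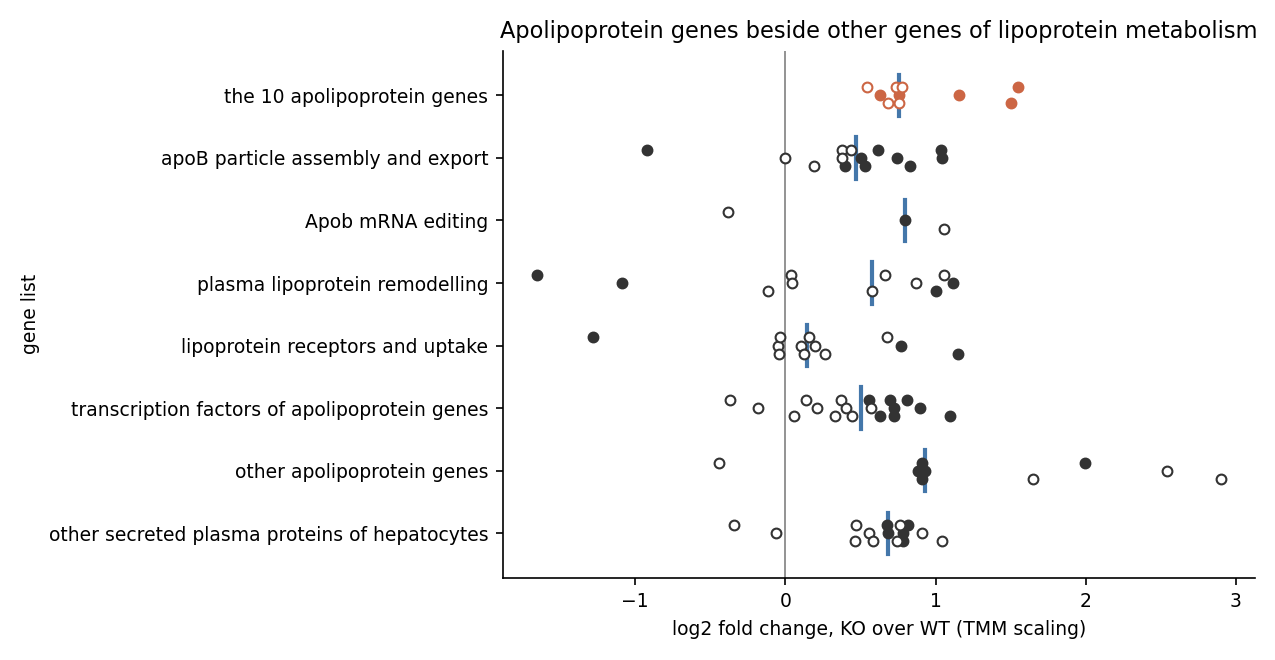
Log2 fold change (SHMT2 HKO over SHMT2 fl/fl, TMM scaling) of the 10 apolipoprotein genes and of 7 lists of other genes of lipoprotein metabolism and plasma proteins, with filled circles for an adjusted p under 0.05 and a blue line for the median of each list. The median is 0.76 for the 10 genes, 0.68 for other secreted plasma proteins and 0.14 for receptors; with ERCC scaling the medians fall to -0.08, -0.13 and -0.58.

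Markers of other liver cells moved with genotype beside these results. All 5 cholangiocyte markers fell, from a summed level of 951 to 1181 CPM in SHMT2 fl/fl mice to 128 to 245 CPM in SHMT2 HKO mice, and all 3 T cell markers fell, from 7.99 to 8.73 CPM to 1.15 to 1.93 CPM. Of 9 macrophage markers, 4 fell and 3 (*Clec4f*, *Vsig4* and *Timd4*) rose, of 7 stellate cell markers 4 fell and 1 rose, of 6 endothelial markers 2 rose, and of 3 B cell markers 0 passed. These calls are under TMM scaling. The cholangiocyte and T cell markers also fell without TMM and with *Alb* or ERCC scaling. Under these, 0 stellate markers rose and 3 to 5 fell. *Vsig4* did not pass without TMM or with ERCC scaling. Of the endothelial markers, 1 rose and 2 fell without TMM and with *Alb* scaling, and 0 passed with ERCC scaling. The summed macrophage markers were at 559 to 766 CPM against 339 to 453 CPM and the summed stellate markers at 776 to 872 CPM against 264 to 609 CPM. In whole liver, more hepatocytes in the sample and more apolipoprotein mRNA per hepatocyte cannot be told apart, and the part of these cell types in the values above was not tested. Relative to *Alb*, a reference chosen after seeing the data, *Apoa2* and *Apoc3* were higher without overlap and the other 8 overlapped. These ratios do not test either reading.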

How the data were processed

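Liver RNA of 6 mice, 3 SHMT2 fl/fl (labelled WT) and 3 SHMT2 HKO (labelled KO), was sequenced as read pairs from NEBNext Ultra libraries. Per the labels and the study's methods, the authors trimmed reads with Trimmomatic 0.36, mapped them with STAR 2.5.2b to GRCm38 plus ERCC sequences, and took unique hits per gene, with featureCounts of Subread 1.5.2 named in the submitters' processing notes. The authors deposited these counts with no normalization. Strand setting and the handling of overlapping genes are not given in the sources used here. The table held 49671 genes and 92 ERCC spike-in RNAs, which stayed out of library sizes and tests. Gene symbols and positions are from GENCODE (GRCm38), in which 49412 gene IDs were found.

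Genes were filtered with filterByExpr, scaled by TMM and tested for genotype with the quasi-likelihood F test of edgeR 4.0.16 in R 4.3.3 (robust, two-sided), with Benjamini-Hochberg adjustment over 16089 genes. The threshold was an adjusted p-value of 0.05. All 6 mice entered the fit. The study used limma-voom, which was run as an alternative (limma 3.58.1) beside DESeq2 1.42.0, other size factors, ERCC scaling, other filters, a non-robust fit, a replicate block, and leave-one-out fits. Scaling to *Alb* was added after seeing the data. The floor of 3 counts corresponds to 0.0734 to 0.152 CPM. Confidence intervals are at 95%. Shares were compared by exact permutation over the mice. Each pair of mice of a genotype differed by more than sampling noise (chi-square per gene 23.6 to 140), so all were counted as separate samples. The test was checked on simulated data. The 10 genes and the lists were chosen with earlier results of these data known. All 10 genes were named. Of other lists, the named genes are all members of a list of up to 3, the called genes with the 3 largest increases and decreases, the most abundant member and genes that act directly on an apolipoprotein. Some genes of this rule are not reported here.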

Additional observations from a re-analysis of the deposited data

How the results depend on the processing

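Of the 10 apolipoprotein genes, 5 passed the test. This number was 2 without TMM, 1 with ERCC scaling, 2 with *Alb* scaling (added after seeing the data) and 9 with DESeq2, and 1 to 8 with each mouse left out in turn. ERCC scaling reversed *Apoa1* (-0.14), *Apob* (-0.066), *Apoc1* (-0.16), *Apoc2* (-0.22), *Apoe* (-0.10) and *Apom* (-0.12), and *Alb* scaling reversed *Apoc2* (-0.034). Of the 82 other genes, 35 passed (31 higher, 4 lower), against 20 without TMM (9 higher, 11 lower), 6 with ERCC scaling (0 higher), 11 with *Alb* scaling (0 higher) and 15 to 43 with a mouse left out. Over all genes, 4663 passed, 43.1% of them higher, against 2866 (3.73% higher) with ERCC scaling, 9.87% higher without TMM, 6.13% higher with *Alb* scaling, 32.5% higher with upper-quartile factors, and 2426 to 5597 with a mouse left out. The cause of these shifts was not tested.

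With the replicate number as a block, 2 of the 10 genes passed, *Apoa2* and *Apoc3*. No label says that the numbers pair the mice. Deviations of same-numbered mice from their group means correlated by -0.046, 0.013 and -0.077, and those of differently numbered mice by -0.024 to 0.081. With 3 mice a group these values cannot exclude a pairing.

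The share of gene counts on the 10 genes stayed 1.47 to 2.03 percentage points higher with a mouse left out. Within the 10-gene total, the differences without 1 mouse were -0.346 to 0.257 points for *Apoa5*, -0.554 to 0.0949 for *Apoc1*, -0.0223 to 0.00377 for *Apom*, 0.0223 (without SHMT2 HKO mouse 3) to 5.55 for *Apoa4*, -1.29 to -0.117 for *Apob* and -6.22 to -2.08 for *Apoe*. For the other 4 genes they were -3.02 to -0.987 for *Apoa1*, 2.12 to 4.43 for *Apoa2*, 0.157 to 0.522 for *Apoc3* and -0.00334 to -0.000234 for *Apoc2*. Only *Apoa5*, *Apoc1* and *Apom* changed sign. With 3 mice a group, an exact test cannot go below 0.1. *Apoc2* had the fewest counts, 120 to 228 per mouse, and its limit is the exons shared with *Gm44805*.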

Other observations

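The acute-phase apolipoproteins *Saa1* and *Saa2*, near-identical copies whose counts are uncertain, were high in 1 mouse. *Saa1* was at 383, 98.5 and 177 CPM in SHMT2 fl/fl mice 1, 2 and 3 and at 3405, 260.3 and 174 CPM in SHMT2 HKO mice 1, 2 and 3. *Saa2* was at 418, 76.4 and 118 CPM and at 4191, 255 and 118 CPM. The groups overlapped for both, and neither passed the test (edgeR adjusted p = 0.164 and 0.176). SHMT2 HKO mouse 1, the highest of the 6 for both, was also the highest for *Apoa1*, *Apoa2*, *Apoc1*, *Apoc3* and *Apom* and the lowest of its group for *Apoa4*. The fibrinogen genes *Fga*, *Fgb* and *Fgg*, at 7894, 8203 and 7792 CPM in that mouse, were at 1433 to 3476 CPM in the other 5 mice. These genes were chosen after their values were seen. With that mouse left out, the same 5 of the 10 apolipoprotein genes passed the test, but the sizes moved. The log2 fold change fell to 0.48 for *Apoa1*, 1.25 for *Apoa2*, 0.47 for *Apoc1*, 0.92 for *Apoc3* and 0.48 for *Apom*. That of *Apoa4* rose to 1.86.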
